A study of Mus musculus with 21 samples.

Results

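The renin-angiotensin genes described here are 8 of the 53801 genes counted in a series of 21 mouse RNA-seq libraries: Agt, Ace, Enpep, Lnpep, Agtr1a, Agtr2, Agtrap and Atp6ap2. They were chosen by name, and the rule sets no threshold on any measured value. They were, however, selected with results of these same libraries in view, so their levels and tests are given as a description and a count over the 8 genes supports nothing by itself. Of the 8, 7 had enough counts to be tested in the hearts and 7 in the cultured fibroblasts, and Agtr2 was tested in neither.

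Angiotensinogen, the product of Agt, is cut by renin to angiotensin I, and angiotensin-converting enzyme (ACE, from Ace) turns that into angiotensin II, a peptide that constricts vessels and promotes growth and scarring in the heart. Angiotensin II acts mainly through the type 1 receptor, which mice make from Agtr1a and Agtr1b, while the type 2 receptor (Agtr2) is generally described as opposing it. The aminopeptidases Enpep and Lnpep act on the shorter angiotensins: Enpep cleaves angiotensin II to angiotensin III, and Lnpep, which rests in the glucose transporter vesicles of muscle and fat, binds angiotensin IV. Agtrap binds the type 1 receptor and promotes its internalisation, and Atp6ap2, the (pro)renin receptor, is also an accessory subunit of the vacuolar proton pump (V-ATPase).

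The heart libraries came from tissue labelled border zone (muscle next to an infarct) at day 7. They were 3 from wild-type mice after a sham operation, 4 from wild-type mice after myocardial infarction (MI), 4 from wild-type mice with MI plus FAPI, read here as an inhibitor of fibroblast activation protein (Fap) from the series title, and 4 from FapKO mice with MI. Sham hearts of the FapKO genotype and FAPI without MI are not among the groups, and the labels give neither the FAPI compound and dose nor the allele and strain. Nothing states whether every heart library stands for a separate mouse, and the p-values for hearts therefore cover library-to-library spread, which may be partly technical. The other experiment held 3 libraries of mouse cardiac fibroblasts grown alone for 7 days in 5% GelMA, a gelatin hydrogel, and 3 of fibroblasts grown in it with cardiac and lung endothelial cells at 2:1, described by the submitters as biological replicates. Co-cultured fibroblasts were sorted (CD45-, CD31-, Pdgfra+) and those grown alone were not, so the effects of the partner cells and of the sort cannot be told apart. Before the gel, fibroblasts had been kept in low-glucose DMEM with serum and a ROCK inhibitor, and endothelial cells in EGM-2 MV medium.

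Heart libraries held 18474138 to 37287355 counts, co-culture libraries 4735337 to 6346015 and fibroblast-alone libraries 12871240 to 15650221. Levels below are CPM (each library's counts scaled to a common library size, here with TMM factors), and differences are log2 fold changes from edgeR's quasi-likelihood test, called at an adjusted p under 0.05 over all genes tested. The TMM factors were 0.626 to 0.697 in sham and 1.24 to 1.55 in MI libraries, so scaling matters: with plain library totals the median log2 change of all genes from sham to MI was 1.23, against 0.14 with TMM. Fap itself averaged 3.32 ± 0.58 CPM (SD, n = 3) in sham, 11.2 ± 1.57 in MI, 8.26 ± 1.66 in FAPI and 2.16 ± 0.26 in FapKO libraries (n = 4 each). FapKO libraries still held 46 to 68 Fap counts each, and the labels do not say which part of the gene was deleted. All 12 cardiomyocyte markers were detected in every heart library, and 9 of 10 fibroblast markers could be tested in the cultures.

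In mm10, Agt lies at chr8:124556534-124569706 (minus strand), Ace at chr11:105967945-105989964 (plus), Enpep at chr3:129269175-129332720 (minus) and Lnpep at chr17:17521410-17625050 (minus). Agtr1a lies at chr13:30336441-30382867 (plus), Agtrap at chr4:148077061-148088031 (minus), and Agtr2 and Atp6ap2 are X-linked, at chrX:21484544-21489164 and chrX:12587801-12617049 (both plus). All 8 are protein-coding genes and values cover their exons. Ace shares 295 exonic bases with the antisense gene Gm11651, and because the strand setting of the counting is not stated, reads of that stretch cannot be assigned to one of them.

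The promoter windows of 4 genes are shown because these genes made the 3 largest rises and the largest fall among the 8 in co-cultured fibroblasts. Each window is RefSeq sequence of GRCm38.p6, from 250 bases before to 50 after the annotated start, written 5′ to 3′ on the gene's strand: Agt at chr8:124569657-124569956, Ace at chr11:105967698-105967997, Enpep at chr3:129332700-129332999 and Lnpep at chr17:17624440-17624739. Capitals mark matches on either strand to 5 motifs: the TATA box as TATAAA, the GC box as GGGCGG, the CCAAT box, the AP-1 site as TGANTCA and the steroid receptor palindrome as ACANNNTGT.
Agt: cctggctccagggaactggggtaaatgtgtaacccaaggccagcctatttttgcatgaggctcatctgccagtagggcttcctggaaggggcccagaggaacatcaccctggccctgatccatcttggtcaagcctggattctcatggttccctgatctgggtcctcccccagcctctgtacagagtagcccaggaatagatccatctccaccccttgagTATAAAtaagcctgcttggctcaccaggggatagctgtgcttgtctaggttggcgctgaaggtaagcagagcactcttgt
Ace: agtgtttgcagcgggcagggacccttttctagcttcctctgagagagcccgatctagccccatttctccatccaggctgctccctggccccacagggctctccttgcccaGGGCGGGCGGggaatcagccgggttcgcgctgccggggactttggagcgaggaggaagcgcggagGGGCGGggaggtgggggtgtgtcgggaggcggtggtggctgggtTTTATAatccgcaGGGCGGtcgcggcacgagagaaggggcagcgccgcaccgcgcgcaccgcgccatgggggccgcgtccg
Enpep: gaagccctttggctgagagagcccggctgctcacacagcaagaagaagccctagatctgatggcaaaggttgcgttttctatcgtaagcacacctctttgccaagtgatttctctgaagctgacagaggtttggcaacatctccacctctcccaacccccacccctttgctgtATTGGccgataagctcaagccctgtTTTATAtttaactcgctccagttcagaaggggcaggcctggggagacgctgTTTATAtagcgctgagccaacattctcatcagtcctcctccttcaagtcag
Lnpep: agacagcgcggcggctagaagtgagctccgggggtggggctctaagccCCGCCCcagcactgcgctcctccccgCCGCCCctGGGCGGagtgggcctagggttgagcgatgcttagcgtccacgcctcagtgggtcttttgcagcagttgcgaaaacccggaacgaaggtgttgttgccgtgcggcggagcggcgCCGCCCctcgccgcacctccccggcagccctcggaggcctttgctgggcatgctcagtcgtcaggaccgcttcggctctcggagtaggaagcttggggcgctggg
The Agt window has a TATAAA match at position -30 from the start, and that of Ace has one on the other strand at position -31 with 4 GGGCGG matches, 2 of which overlap. Enpep has TATAAA matches at positions -52 and -1 and a CCAAT match at position -77, all on the other strand. Lnpep has 4 GGGCGG matches, 3 of them on the other strand, and no TATAAA match. For scale, the TATA box letters were found in 13.6% of 32851 mouse windows of this length, those of the GC box in 35.7%, of the CCAAT box in 37.4%, of the AP-1 site in 7.81% and of the palindrome in 6.85%. None of the 4 windows holds the AP-1 or palindrome letters, which says only that those letters are not in these windows. Ace has a further annotated start inside the gene, at which the shorter, testis form begins in general knowledge, and its window holds 1 CCAAT match and no TATAAA match.

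Per kilobase of exon, the most abundant of the 8 in sham hearts was Agtr1a at 13.6 ± 0.92 CPM per kb (SD, n = 3), followed by Atp6ap2 at 11.3 ± 0.50 and Agtrap at 8.52 ± 0.46. Agt, Ace, Enpep and Lnpep ran from 2.48 down to 0.29 CPM per kb, and Agtr2 stood at 0.026. In MI hearts Atp6ap2 led at 24.3 ± 1.95 CPM per kb (n = 4) while Agtr1a stood at 1.56 ± 0.41, below Ace at 3.25 ± 0.55 and Agt at 2.15 ± 0.48. The receptor gene that led in sham hearts therefore stood below 4 of the others after MI.

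**Figure D1:**
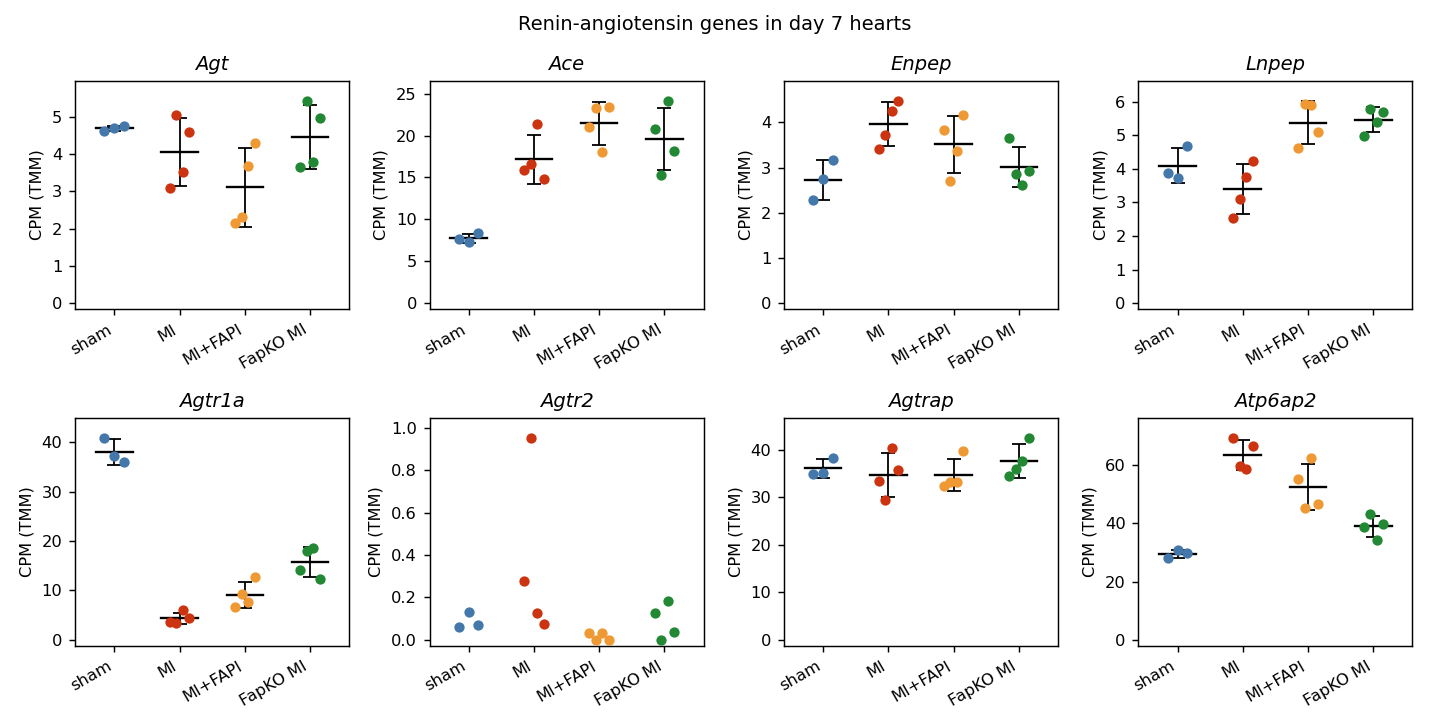
TMM-scaled CPM (vertical axis, linear) of the 8 genes in each heart library by group; lines and bars are the group mean and SD, except for Agtr2, whose 0 to 37 counts are shown as points only. Agtr1a is highest in the 3 sham libraries and lowest in the 4 MI libraries, with FAPI and FapKO libraries between, and Atp6ap2 runs in the opposite order.

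Agtr1a, the main type 1 angiotensin receptor gene of the mouse, changed most. Sham libraries held 40.8, 37.2 and 35.9 CPM, and MI libraries 3.65, 3.48, 5.97 and 4.32. FAPI libraries held 6.62, 9.31, 7.68 and 12.8 CPM, and FapKO libraries 14.1, 18.05, 18.5 and 12.4. All sham libraries lay above every other library, and all MI libraries lay below every FAPI and FapKO library, while the highest FAPI library lay above the lowest FapKO library. MI hearts were at 11.5% of the sham mean, FAPI hearts at 23.95% and FapKO hearts at 41.5%. From sham to MI the gene fell by 3.13 on the log2 scale (SE 0.22, adjusted p = 6.3e-09). Against MI it was higher by 1.07 with FAPI (SE 0.21, adjusted p = 0.0013) and by 1.86 with FapKO (SE 0.21, adjusted p = 2.9e-06). It remained below sham in both, by -2.06 with FAPI (adjusted p = 9.8e-07) and by -1.27 with FapKO (adjusted p = 0.00026). The order of the means was sham, FapKO, FAPI, MI, and each neighbouring pair passed the test, the closest being FapKO above FAPI by 0.79 (SE 0.20, adjusted p = 0.015). Without FAPI replicate 1, FAPI replicate 3 or FapKO replicate 3 that last difference was 0.67, 0.72 and 0.71 with adjusted p of 0.0504, 0.0561 and 0.0576, so it missed the threshold each time.

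Atp6ap2, the (pro)renin receptor gene, ran in the reverse order. Its level was 28.1, 30.7 and 29.8 CPM in sham and 69.4, 59.8, 58.8 and 66.4 in MI libraries. It was 55.2, 45.4, 62.5 and 46.8 CPM in FAPI and 38.9, 43.2, 34.4 and 39.8 in FapKO libraries. All 4 FapKO libraries lay between the sham and the FAPI libraries, and FAPI libraries overlapped MI. The rise from sham to MI was 1.11 (SE 0.12, adjusted p = 5.8e-07), and FapKO hearts were lower than MI by -0.70 (SE 0.11, adjusted p = 6e-05). With FAPI the difference from MI was -0.28 (SE 0.11) and missed the threshold (adjusted p = 0.062), but passed without MI replicate 3 (-0.31, adjusted p = 0.047) or FAPI replicate 3 (-0.37, adjusted p = 0.014). FapKO hearts were lower than FAPI hearts by -0.43 (SE 0.11, adjusted p = 0.017), and without the same 3 libraries as for Agtr1a this was -0.40, -0.33 and -0.37 (adjusted p = 0.052, 0.0694 and 0.0681). They stayed above sham by 0.40 (adjusted p = 0.014), a call that ended without sham replicate 1 (0.37, adjusted p = 0.0617).

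Ace, the converting enzyme, rose after MI and stayed high in both other groups. Sham libraries held 7.70, 7.25 and 8.34 CPM, and MI libraries 15.8, 16.6, 21.4 and 14.8. FAPI libraries held 20.98, 23.3, 18.1 and 23.4 CPM, and FapKO libraries 20.8, 15.3, 24.1 and 18.2. All 12 libraries with MI lay above all 3 sham libraries, and the MI, FAPI and FapKO groups overlapped one another. Against sham, Ace was higher by 1.15 in MI (SE 0.17, adjusted p = 1.2e-05), 1.47 in FAPI (SE 0.17, adjusted p = 2.7e-06) and 1.34 in FapKO hearts (SE 0.17, adjusted p = 2.9e-05). Among the groups with MI, no difference passed the test: 0.32 for FAPI against MI (SE 0.14, adjusted p = 0.095), 0.19 for FapKO against MI (SE 0.14) and -0.13 for FapKO against FAPI (SE 0.14). With plain library totals the first 2 of these reversed, to -0.10 and -0.36. The second was then called, with Ace lower in FapKO than in MI hearts. In that setting the median of all genes moved by -0.63 between these groups.

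Lnpep, the angiotensin IV-binding aminopeptidase, did not pass the test between MI and sham (-0.27, SE 0.17, adjusted p = 0.16), and was higher with FAPI and FapKO than with MI alone. It stood at 3.88, 3.72 and 4.69 CPM in sham and 2.54, 3.09, 3.77 and 4.24 in MI libraries. FAPI libraries held 4.62, 5.92, 5.89 and 5.08 CPM, and FapKO libraries 4.98, 5.79, 5.38 and 5.69. Every FAPI and FapKO library lay above every MI library. The differences were 0.66 for FAPI (SE 0.15, adjusted p = 0.0031) and 0.69 for FapKO (SE 0.15, adjusted p = 0.00099). With plain library totals they were 0.25 and 0.14 and did not pass (adjusted p = 0.20 and 0.45), the setting in which the median of all genes itself moved by -0.44 and -0.63. FAPI and FapKO hearts differed by 0.02 (SE 0.14).

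Enpep, which makes angiotensin III, held 2.28, 2.74 and 3.17 CPM in sham and 3.40, 3.71, 4.26 and 4.47 in MI libraries, which did not overlap. Its rise of 0.54 (SE 0.18, adjusted p = 0.015) was no longer called without sham replicate 1 (0.42, adjusted p = 0.088). FAPI libraries held 3.83, 2.70, 3.38 and 4.16 CPM and FapKO libraries 3.65, 2.86, 2.62 and 2.93, both overlapping MI and sham. Enpep was lower in FapKO than in MI hearts by -0.40 (SE 0.16, adjusted p = 0.045), which ended with RLE size factors (adjusted p = 0.057), with no filter on low counts (0.089), in DESeq2 (0.067) and without MI replicate 2, 3 or 4 or FapKO replicate 2, 3 or 4 (0.052 to 0.13). FAPI against MI gave -0.17 (SE 0.15).

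Agt, the source of all angiotensins, held 4.62, 4.703 and 4.76 CPM in sham libraries and 3.09, 5.05, 3.52 and 4.59 in MI libraries. FAPI libraries held 2.14, 2.30, 3.68 and 4.30 CPM and FapKO libraries 3.65, 5.42, 3.795 and 4.95. The SD was 0.068 CPM over the 3 sham libraries and 0.87 to 1.06 CPM in the groups with MI. Its difference was called only between FAPI and sham, at -0.59 (SE 0.24, adjusted p = 0.0495), where the groups did not overlap. That call ended without any 1 of the 3 sham libraries or FAPI replicate 1 or 2 (adjusted p = 0.099 to 0.13) and with 3 other settings, and plain library totals gave 0.07. The difference from sham was -0.21 (SE 0.24) in MI and -0.07 (SE 0.24) in FapKO hearts.

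Agtrap, the receptor-associated protein gene, varied little by group, with means of 36.1 ± 1.94 CPM in sham (SD, n = 3), 34.7 ± 4.57 in MI, 34.7 ± 3.36 in FAPI and 37.7 ± 3.48 in FapKO hearts (n = 4 each). Its log2 differences in the 6 heart comparisons lay between -0.06 and 0.12, each with an SE of 0.10 to 0.11, and none passed the test. With plain library totals it was 1.02 higher in MI than in sham (adjusted p = 2.8e-07), below the median shift of all genes in that setting.

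Agtr2, the type 2 receptor gene, was close to the limit of detection and did not pass the filter on low counts. The 3 sham libraries held 1, 2 and 1 counts and the 4 MI libraries 9, 37, 4 and 2. FAPI libraries held 1, 0, 1 and 0 counts, and FapKO libraries 3, 0, 5 and 1. Of the 52 counts in the MI group, 37 came from replicate 2 (0.95 CPM), and the other MI libraries held 0.08 to 0.28 CPM. A count of 0 in 1 library allows, at 3 counts, a level of at most 0.11 CPM in the FAPI and 0.13 CPM in the FapKO group, a limit that covers counting error only.

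**Figure D2:**
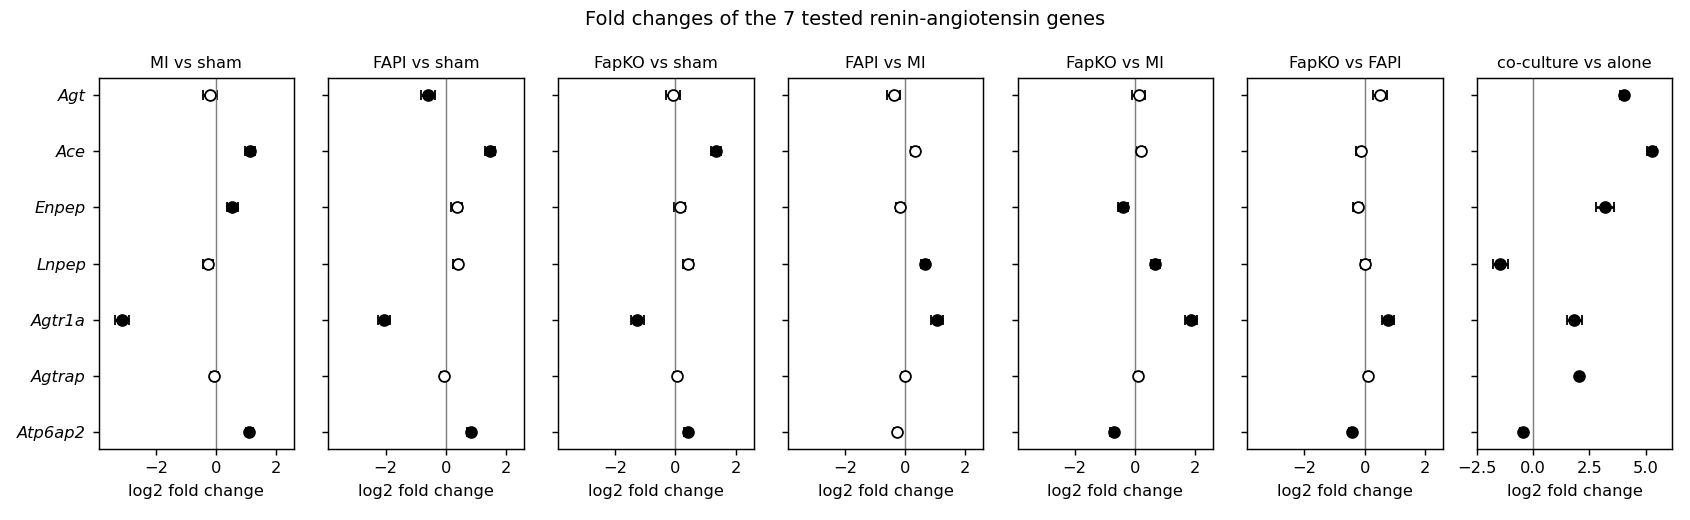
Log2 fold changes (horizontal axis) of the 7 tested genes in each comparison, with bars of 1 SE; filled points passed the test at an adjusted p under 0.05. Agtr1a runs from -3.13 (MI against sham) to 1.86 (FapKO against MI), and all 7 points are filled in the culture panel, whose axis is wider.

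From sham to MI, 3 of the 7 tested genes were called higher and 1 lower, where 37.1% of all 17064 tested genes were called higher, 32.0% lower and 69.1% in either direction. FAPI against sham gave 2 higher and 2 lower (background 29.2%, 26.5% and 55.8% in all). FapKO against sham gave 2 higher and 1 lower (19.2%, 20.3% and 39.5%). Between the groups with MI, FAPI against MI gave 2 higher and 0 lower (17.9%, 11.9% and 29.8%). FapKO against MI gave 2 higher and 2 lower (25.0%, 26.0% and 51.0%), and FapKO against FAPI 1 and 1 (6.12%, 7.05% and 13.2%). The shares of members lay near those of all genes in most comparisons, and nothing is read from them. The comparisons with MI share the MI libraries and those with sham share the sham libraries. Without MI replicate 3, FAPI against MI called 4 members, with Ace (0.44, adjusted p = 0.021) and Atp6ap2 (-0.31, adjusted p = 0.047) added. With plain library totals, MI against sham called 6 higher and 1 lower, in a setting in which 86.1% of all called genes were higher, against 53.7% with TMM. FAPI against MI then called 1 higher (Agtr1a, 0.64) and 4 lower: Agt (-0.82), Enpep (-0.58), Agtrap (-0.41) and Atp6ap2 (-0.68), where 14.6% of all called genes were higher, against 60.1% with TMM. FapKO against MI called 1 higher and 4 lower in that setting, beside 12531 of 17064 genes called, 16.6% of them higher. FAPI against sham gave 5 and 1 (12401 genes, 86.8% higher) and FapKO against sham 5 and 1 (9994 genes, 91.7% higher). FapKO against FAPI gave 1 and 1 (2318 genes, 32.1% higher). For MI against sham and FAPI against MI, 14700 and 9933 of the 17064 genes were called in that setting. Nothing is read from these member counts.

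Across the 15 heart libraries, Agtr1a and Atp6ap2 had a Pearson correlation of -0.957 (log2 CPM), the strongest of the 21 pairs of tested members. The other pairs ran from -0.681 (Enpep and Agtr1a) to 0.717 (Enpep and Atp6ap2). These libraries share 4 groups and the same scaling, so each r describes the group pattern and carries no p. Among 13402 other genes of at least 1 CPM, those most like Agtr1a were Grb14 (r = 0.994), Fitm1 (0.992) and Zfp428 (0.992), and 1142 genes exceeded 0.95. Those most like Atp6ap2 were Itgb2, Lpxn and Tyrobp (0.990 each, with 459 genes over 0.95), of which Itgb2 and Tyrobp are leukocyte genes in general knowledge. Those most like Ace were Mfap5 (0.965), Cilp (0.953) and Ltbp4 (0.951), matrix genes of fibroblasts in general knowledge, and no other gene exceeded 0.95. For Enpep, Lnpep, Agt and Agtrap the nearest genes were Eif4enif1 (0.905), Pla1a (0.896), Nrg4 (0.854) and Fmo5 (0.828).

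Levels of cell type markers are given beside these patterns. In bulk tissue, fewer cells of a type and less RNA per cell cannot be told apart. The 12 cardiomyocyte markers, all detected in every heart library, summed to 64890 to 71620 CPM in sham, 9544 to 28400 in MI, 27770 to 47270 in FAPI and 38830 to 46090 in FapKO libraries. Their mean log2 level had the same order of groups as Agtr1a: it was lower than sham by -2.58 in MI, -0.95 in FAPI and -0.51 in FapKO hearts, beside -3.13, -2.06 and -1.27 for Agtr1a. Of the 12, Myh7 averaged 45.3 CPM in sham, 23.1 in MI, 121.7 in FAPI and 91.1 in FapKO hearts. Tnnt2 (13270 and 12570 CPM) and Mybpc3 (775 and 745) also averaged more in FAPI than in FapKO hearts. Ttn (1421 and 1396) and Ryr2 (105.5 and 104.2) averaged slightly more in FapKO than in sham hearts. The rest of the 12 had the order of Agtr1a. The mean level of the 8 pericyte markers, also all detected, had that order too, at -0.64, -0.47 and -0.17. Of these markers, Pdgfrb (24.0 CPM in sham, 61.2 in MI), Cspg4 (10.6 and 16.5) and Notch3 (9.91 and 14.0) were higher in MI hearts. The rest of the 8 were lower. The 10 macrophage markers, all detected, summed to 2217 to 2440 CPM in sham, 7867 to 10980 in MI, 5155 to 9055 in FAPI and 3131 to 5905 in FapKO libraries. Their mean level had the order of Atp6ap2: above sham by 1.82, 1.25 and 0.62, beside 1.11, 0.83 and 0.40 for Atp6ap2. The mean level had the same order of groups for smooth muscle markers (1.04, 0.88 and 0.48 above sham) and activated fibroblast markers (2.59, 2.18 and 1.41). It did so too for T cell markers (1.63, 1.08 and 0.41). Neutrophil markers stood above sham by 2.55, 0.30 and 0.29, so FAPI and FapKO hearts were nearly alike. Of these markers, S100a8, S100a9, Ngp and Camp averaged less in FAPI than in FapKO hearts, and Csf3r and Retnlg more. Ngp (1.86 CPM in sham, 1.15 in FAPI, 1.36 in FapKO) and Camp (2.97, 2.02 and 2.19) were below sham in both. The summed smooth muscle markers had another order, averaging 1069 CPM in sham, 1358 in MI, 2237 in FAPI and 1597 in FapKO hearts. The mean level of the 10 fibroblast markers was above sham by 1.18, 0.90 and 0.70, the order of Atp6ap2 and not of Ace. Of the 10, Gsn averaged 1265 CPM in sham and 384, 331 and 500 in MI, FAPI and FapKO hearts. Pi16 averaged 40.6 in sham and 42.5, 58.1 and 67.5 in those groups. Tcf21 averaged more in FAPI (5.54) than in MI hearts (5.15), and the rest had the order of the mean. Ace averaged 17.2 CPM in MI, 21.5 in FAPI, 19.6 in FapKO and 7.76 in sham hearts. The 10 endothelial markers differed from sham by -0.19, -0.12 and 0.17. The part of these cell types in the results was not tested.

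**Figure D3:**
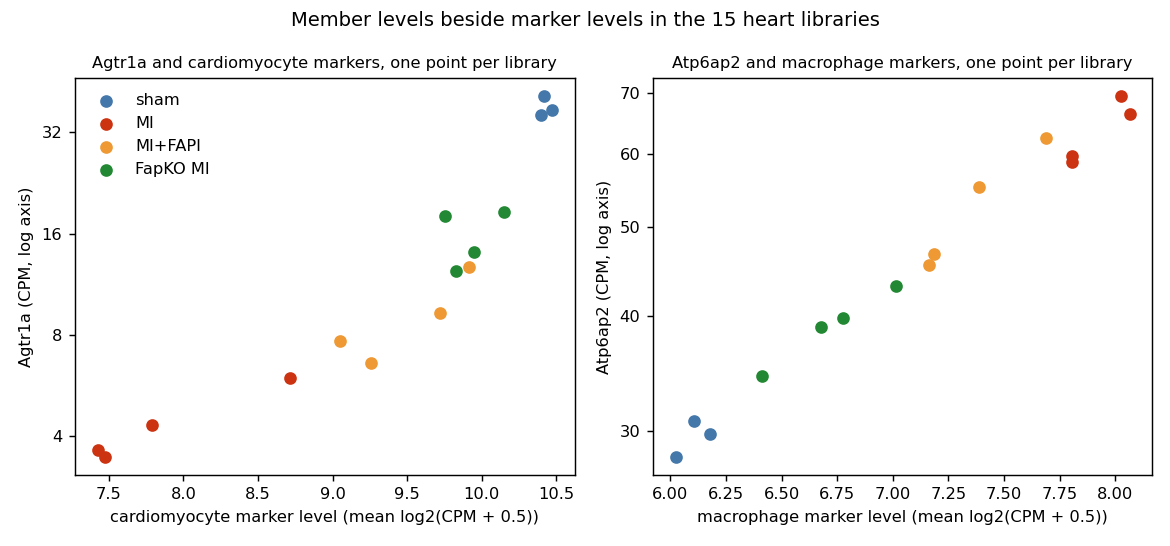
Each point is a heart library: left, Agtr1a CPM (log axis) against the mean log2(CPM + 0.5) of 12 cardiomyocyte markers; right, Atp6ap2 CPM (log axis) against the same measure for 10 macrophage markers. Sham libraries stand at the upper right on the left and at the lower left on the right, and the MI libraries at the opposite ends.

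Other genes of the pathway were read from 8 lists of 76 genes, 69 of them tested in the hearts. From sham to MI, 36 were called higher and 21 lower with TMM, and 57 and 4 with plain library totals. FAPI against MI gave 9 higher and 13 lower (5 and 41), FapKO against MI 13 and 33 (4 and 50), and FapKO against FAPI 2 and 13 (1 and 17), with the counts under plain totals in parentheses. Of all genes tested, with TMM, 37.1% were called higher and 32.0% lower from sham to MI, 17.9% and 11.9% for FAPI against MI, 25.0% and 26.0% for FapKO against MI, and 6.12% and 7.05% for FapKO against FAPI. With plain totals, 14700, 9933, 12531 and 2318 of 17064 genes were called in these comparisons, in that order. Of those calls, 86.1%, 14.6%, 16.6% and 32.1% were higher.

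Renin (Ren1) was not tested in the hearts: sham libraries held 0 counts and MI, FAPI and FapKO groups 18, 4 and 6 counts in all. Agtr1b, the other mouse type 1 receptor gene, held at most 2 counts in any heart library. Of 8 tested genes of other forming enzymes and substrates, 5 rose and 3 fell from sham to MI. Those with the smallest p were Prcp (0.95, SE 0.14) and Ctsa (0.93, SE 0.16), lysosomal carboxypeptidases. The mast cell proteases Cma1 and Mcpt4, also in this list, fell from sham to MI by 1.46 and 1.66 on the log2 scale. They are 2 of the 6 mast cell markers, whose summed level was 17.5 to 39.7 CPM in sham and 6.81 to 14.6 in MI hearts. Of the 6, Kit averaged more in MI (2.53 CPM) than in sham hearts (1.36), and the rest averaged less. The part of mast cells was not tested.

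Among the degrading peptidases, Anpep rose from sham to MI by 1.67 (SE 0.20, adjusted p = 2e-06), as did Rnpep by 0.62 (SE 0.12). Mme, neprilysin, which also degrades natriuretic peptides, averaged 2.05 ± 0.35 CPM in sham, 0.92 ± 0.26 in MI, 0.58 ± 0.20 in FAPI and 1.55 ± 0.25 in FapKO hearts. Its difference between FapKO and FAPI was 1.42 (SE 0.26, adjusted p = 0.0022). Mas1, the receptor for angiotensin-(1-7), was lower in MI than in sham by -2.26 (SE 0.36, adjusted p = 3.3e-05) and did not pass the test with FAPI (0.20, SE 0.38) or FapKO (0.69, SE 0.36) against MI, on 22 to 38 counts in each group. Of 5 tested genes of the aldosterone arm, 2 rose and 1 fell from sham to MI. Fkbp5, a chaperone induced by steroid hormones, rose by 1.77 (SE 0.12, adjusted p = 5.7e-09) and was lower in FapKO hearts than in MI by -1.25 (SE 0.11, adjusted p = 3.5e-07) and than in FAPI hearts by -1.01 (SE 0.11, adjusted p = 2.2e-05). Hsd11b2 rose by 3.00, with an SE of 1.04. Nr3c2, the mineralocorticoid receptor, averaged 2.52 ± 0.83 CPM in sham and 0.35 ± 0.20 in MI hearts and was higher than MI by 1.15 with FAPI (adjusted p = 0.0495) and by 1.70 with FapKO (adjusted p = 0.0025). Arrb2, an arrestin that binds the type 1 receptor, rose by 1.86 from sham to MI (SE 0.14) and was lower by -0.96 in FapKO than in MI hearts (SE 0.12).

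Of 12 genes known to respond to angiotensin II, 10 rose and 1 fell from sham to MI, where 37.1% of all genes were called higher and 32.0% lower. Their median was 2.40, against 0.14 for all genes. The list was written with earlier results of these data known, so its counts and medians are a description. Lox, a collagen crosslinking enzyme, rose by 2.84 (SE 0.18), while Rgs2, a brake on receptor signalling, fell by 0.80 (SE 0.15). In FapKO against MI hearts 10 of the 12 were called lower and 0 higher (median -0.92), beside 26.0% and 25.0% of all genes. In FapKO against FAPI hearts 8 were called lower and 0 higher, beside 7.05% and 6.12% of all genes (median -0.71, against -0.02 for all genes). FAPI against MI gave 1 higher and 2 lower (17.9% and 11.9% of all genes), and the other 9 did not pass. Many of these genes respond to other signals too. The list overlaps the activated fibroblast markers (Postn and Lox), whose mean level was lower than in MI by -0.41 with FAPI and by -1.19 with FapKO, and their part was not tested.

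Of 15 V-ATPase subunits, which share a complex with Atp6ap2, 5 were called higher and 5 lower from sham to MI (median -0.19), close to the shares of all genes (37.1% and 32.0%), and nothing is read from these counts. Atp6v1a rose by 1.44 (SE 0.17) and Atp6v1d fell by 1.27 (SE 0.13). Of the 5 GLUT4 vesicle partners of Lnpep, 2 were called higher and 3 lower from sham to MI. Slc2a4, the insulin-responsive glucose transporter, fell from sham to MI by 3.13 (SE 0.25) and was higher than MI by 1.54 with FAPI (SE 0.23) and by 2.14 with FapKO (SE 0.23). Vamp2 and Tbc1d4 fell from sham to MI by 1.53 (SE 0.13) and 0.89 (SE 0.15), while Sort1 and Slc2a1 rose by 0.66 (SE 0.14) and 0.82 (SE 0.18).

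**Figure D4:**
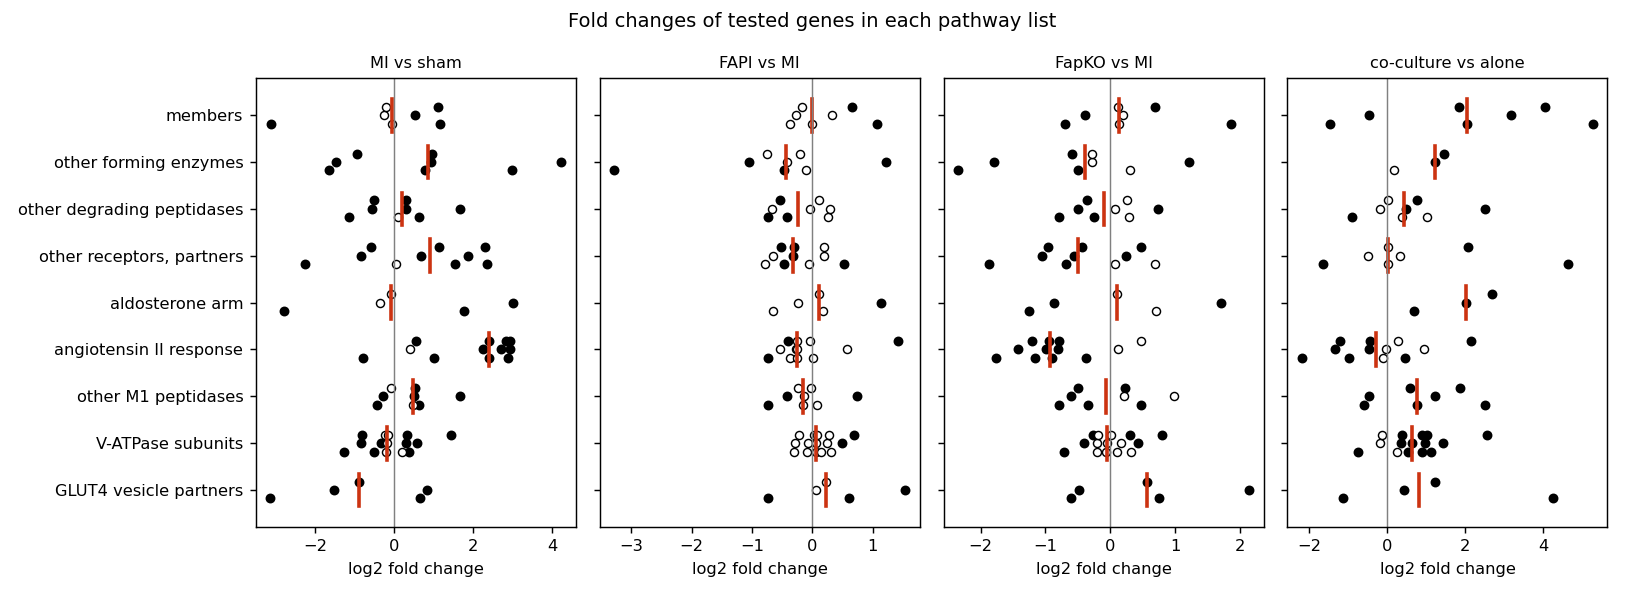
Log2 fold changes (horizontal axis) of each tested gene of the members and the 8 pathway lists (rows) in 4 comparisons, on separate axis ranges; filled points passed the test and red lines are list medians. The angiotensin II response row sits right of 0 from sham to MI (median 2.40) and left of 0 for FapKO against MI (median -0.92); in the last panel the members' median is 2.06.

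Among the fibroblast libraries, replicate 2 of those grown alone stood apart: its counts differed from the other 2 by a chi-square per degree of freedom of 178 and 159.5, which differed from each other by 9.69. Values without it are given with the counts of calls. In cultured fibroblasts, co-culture with endothelial cells went with far higher levels of Agt and Ace. Agt held 102.5, 93.0 and 107.9 CPM in co-culture and 5.72, 7.32 and 5.48 in fibroblasts grown alone, a difference of 4.04 (SE 0.16, adjusted p = 8.9e-07). Ace held 278.0, 249.0 and 297.0 CPM in co-culture and 6.19, 9.47 and 5.75 alone, a difference of 5.28 (SE 0.21, adjusted p = 8.9e-07) and a ratio of means of 38.5. Per kilobase of exon the genes reached like levels in co-culture, 53.5 ± 3.99 CPM per kb for Agt and 52.0 ± 4.57 for Ace (SD, n = 3).

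Agtrap and Agtr1a were higher as well. Agtrap held 121.7, 139.7 and 133.8 CPM in co-culture against 30.6, 33.6 and 30.9 alone (2.06, SE 0.11, adjusted p = 1.8e-06). Agtr1a held 8.48, 4.695 and 4.715 CPM against 2.07, 1.27 and 1.56 (1.83, SE 0.33, adjusted p = 0.0013), on 21 to 35 counts in each co-culture library. Enpep stood at 1.94, 3.35 and 3.84 CPM in co-culture and 0.41, 0.24 and 0.32 alone (3.18, SE 0.40, adjusted p = 0.00016), on only 3 to 22 counts a library.

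Lnpep and Atp6ap2 were lower in co-culture. Lnpep held 0.73, 1.34 and 1.05 CPM, which is 3, 6 and 6 counts, against 3.01, 2.55 and 3.17 alone (-1.47, SE 0.33, adjusted p = 0.0042). Atp6ap2 held 107.9, 110.0 and 116.3 CPM against 174.5, 133.6 and 157.0 (-0.48, SE 0.12, adjusted p = 0.0090). It was still among the most abundant of the 8 in both cultures, at 42.6 CPM per kb in co-culture and 59.2 alone. Agtr2 held 0 counts in all 3 co-culture libraries, which together allow up to 0.21 CPM at 3 counts, and 1, 0 and 1 counts alone.

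In all, 5 of the 7 tested members were called higher and 2 lower in co-culture, where 30.3% of 12293 tested genes were called higher, 29.5% lower and 59.8% in either direction. With counts thinned to the smallest library, Enpep and Lnpep were no longer tested and the other 5 were still called, Ace at 5.29 and Agt at 4.22. All 7 tested members had groups that did not overlap. The share of all genes without overlap was not counted, so nothing is read from this. All 7 calls held without each library in turn. Without replicate 2 of the fibroblasts grown alone, the differences were 5.50 for Ace, 4.15 for Agt, 3.03 for Enpep, 2.08 for Agtrap, 1.67 for Agtr1a, -0.60 for Atp6ap2 and -1.57 for Lnpep.

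**Figure D5:**
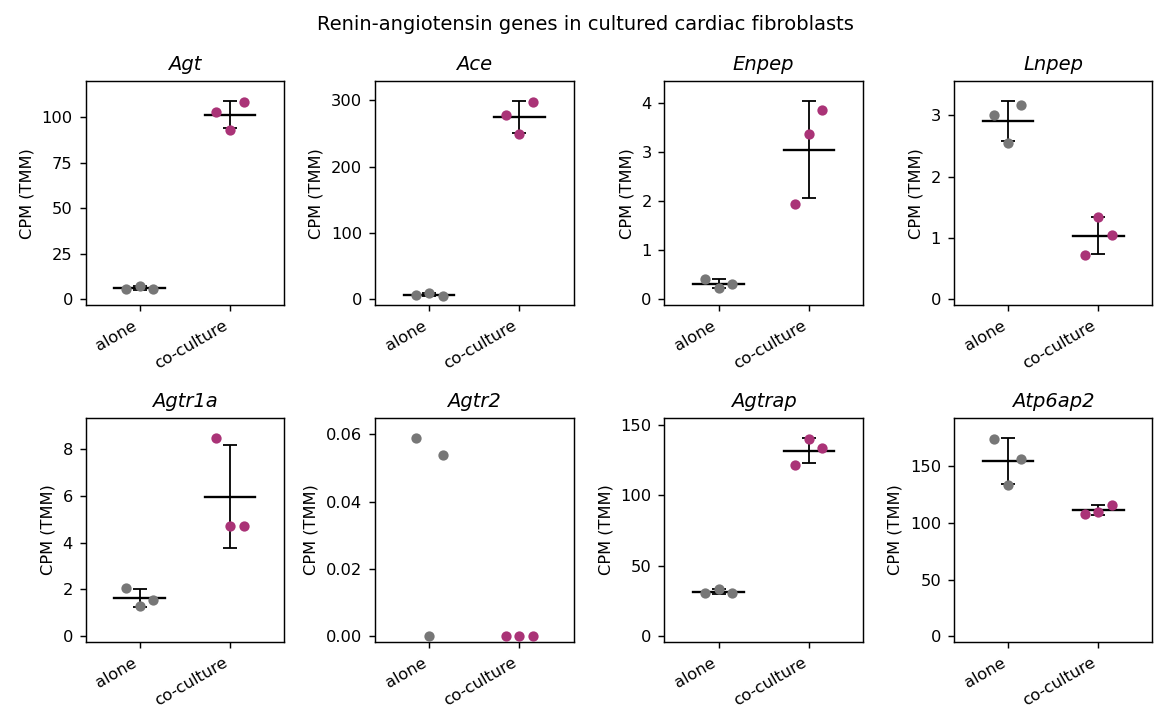
TMM-scaled CPM (vertical axis, linear) of the 8 genes in each fibroblast library grown alone or in co-culture; lines and bars are the mean and SD of 3 libraries, except for Agtr2, shown as points. Co-culture libraries stand apart for Agt (93.0 to 107.9 against 5.48 to 7.32 CPM) and Ace (249 to 297 against 5.75 to 9.47 CPM).

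Other genes of the pathway moved in both directions in co-culture, with 29 of 57 tested called higher and 12 lower (19 and 13 with plain library totals, under which the median of all genes moved to -0.41), beside 30.3% higher and 29.5% lower of all genes tested. With plain totals 7668 of 12293 genes were called, 32.7% of them higher. The V-ATPase subunits had 11 of 15 higher and 1 lower, so Atp6ap2 and most of its partners did not share a direction, with Atp6v0c at 2.56 (SE 0.16) and Atp6v0b at 1.42 (SE 0.11). The 3 tested genes of the aldosterone arm were all higher: Sgk1 (2.69, SE 0.15), Fkbp5 (2.01, SE 0.21) and Hsd11b1 (0.69, SE 0.15), the last making active glucocorticoid. Zbtb16, a binding partner of the type 2 receptor, was higher by 4.62 (SE 0.54). Sgk1, Fkbp5 and Zbtb16 are textbook genes of glucocorticoid response, and the medium of the gel cultures is not stated, so the part of a glucocorticoid was not tested. Of the 12 genes known to respond to angiotensin II, 2 were higher and 6 lower (median -0.28, against -0.06 for all genes), with Postn at -1.34 (SE 0.12) and Lox at -1.21 (SE 0.11) lower and Rgs2 at 2.16 (SE 0.28) higher.

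ACE is also an enzyme of endothelial cells, the partner cells that the sort was set to remove. The 10 endothelial markers summed to 35.1 to 38.6 CPM alone and 214.5 to 270.1 in co-culture, of which Fabp4, a gene also of adipocytes, made 18.1 to 21.8 and 192.5 to 246.9. Of the 5 endothelial markers that could be tested, 2 were called higher and 0 lower. In co-culture, Egfl7 averaged 10.8 ± 3.01 CPM (SD, n = 3), against 4.81 ± 0.58 alone, Emcn 5.21 ± 3.05 against 5.73 ± 0.99 and Tek 4.07 ± 0.45 against 4.47 ± 0.54. Pecam1 (0.38 ± 0.35 CPM), Cdh5 (0.21 ± 0.03), Kdr (0.44 ± 0.25), Tie1 (0.32 ± 0.56) and Vwf (0.19 ± 0.18) were under 1 CPM in co-culture, and Erg was at 0. In fibroblasts grown alone, Pecam1 averaged 1.05 CPM, Cdh5 0.46, Kdr 0.30, Tie1 0.34, Vwf 0.19 and Erg 0.04. The 10 macrophage markers summed to 905.3 to 1449 CPM alone and 403.2 to 524.3 in co-culture, with 9 of 10 called lower and 1 higher. The 10 fibroblast markers summed to 4254, 10400 and 4574 CPM alone, the high value being replicate 2, and to 11390 to 12370 in co-culture. Of these, 7 of 9 tested were called higher, and 6 of 7 tested activated fibroblast markers were lower. Only co-cultured cells were sorted, for Pdgfra and against CD31 and CD45. Pdgfra is in the fibroblast list (34.4 CPM alone, 104.7 in co-culture), and CD31 is the product of Pecam1 in the endothelial list. The marker levels are therefore not independent of the sort. The 5 epicardial markers summed to 123.5 to 156.8 CPM alone and 25.0 to 32.0 in co-culture, with 4 of 5 called lower and 0 higher. Adipocyte markers summed to 1.71 to 3.34 CPM alone and 8.73 to 14.5 in co-culture, with 2 of 3 tested called higher and 0 lower. The part of endothelial cells, macrophages, epicardial cells, adipocytes and the fibroblasts' state in these differences was not tested.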

How the data were processed

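Total RNA of hearts and polyadenylated RNA of cultures went into Smart-seq2 libraries, modified to carry UMIs, per the labels' protocols. The submitters' processing notes name STAR, HTSeq and mm10, without versions or a strand setting. The deposited values are whole counts per gene, and the names of the culture files alone carry a mark of duplicate removal, so hearts and cultures were never compared with each other. No row lacked an Ensembl mouse gene identifier (0 of 53801), and 53620 identifiers matched a gene symbol. A series-wide table was left out, since none of its 6 columns carries a name found in the labels.

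The members, gene lists and marker lists were chosen with earlier results of these data known. All 15 hearts entered one edgeR 4.0.16 fit (filterByExpr, TMM, quasi-likelihood F test, Benjamini-Hochberg adjustment over all genes tested, R 4.3.3) and the 6 fibroblast libraries another. The SE is the absolute log2 fold change over the square root of F. All members are named in each comparison, the 2 genes of smallest p per list, further list genes for their role in the pathway after values were seen, and the 3 genes most correlated with each member (log2 CPM, prior count 2). Marker levels are mean log2(CPM + 0.5). Length is union exon length in GENCODE M21. Alternatives were RLE size factors, total-count scaling, 2 filters, DESeq2 1.42.0, limma-voom (limma 3.58.1), a replicate block, each library left out, only the compared groups, and thinning. Some genes of the lists are not reported here by name. The scripts were tested on simulated data. Replicates were not copies (chi-square per degree of freedom 3.14 to 178). Tables were made with pandas 2.3.3 (Python 3.11.15) and plots with matplotlib 3.10.9.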

Additional observations from a re-analysis of the deposited data

Results flagged for a closer look

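Agtrap in FAPI replicate 4 stood at 39.7 CPM, apart from the other 3 FAPI libraries at 32.5 to 33.3, by more than Dixon's 95% critical value for 4 samples (0.829). It was 1 of 24 groups examined in this way, and chance alone marks about 1 in 20. Agtr1a differed between the FapKO and FAPI effects against MI by 0.79 (adjusted p = 0.015 in edgeR). Atp6ap2 differed between them by -0.43 (adjusted p = 0.017). Both differences missed the threshold when FAPI replicate 1, FAPI replicate 3 or FapKO replicate 3 was left out.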

How the results depend on the processing

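Counts of members called, with each library left out in turn, ran from 3 to 4 for MI against sham (4 with all), 2 to 4 for FAPI against MI (2), 3 to 4 for FapKO against MI (4), 0 to 3 for FapKO against FAPI (2), 3 to 4 for FAPI against sham (4), 2 to 4 for FapKO against sham (3) and 7 to 7 in the cultures (7). The count of 0 for FapKO against FAPI came without FAPI replicate 1, FAPI replicate 3 or FapKO replicate 3, and the 4 for FAPI against MI without MI replicate 3. Total-count scaling called 14700, 9933 and 9994 of 17064 tested genes for MI against sham, FAPI against MI and FapKO against sham. For the members it gave 7, 5 and 6 calls in these comparisons. It reversed these differences, of which Agt for FAPI against sham alone had been called: from sham to MI, Agt to 0.89, Lnpep to 0.81 and Agtrap to 1.02; FAPI against MI, Ace to -0.10; FapKO against MI, Agt to -0.42, Ace to -0.36 and Agtrap to -0.42; FapKO against FAPI, Lnpep to -0.11 and Agtrap to -0.0053; FAPI against sham, Agt to 0.072 and Agtrap to 0.60; FapKO against sham, Agt to 0.47. In these settings the median of all genes moved too: FAPI against sham to 0.77 and FapKO against sham to 0.59.

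Agtrap for FAPI against MI, at -0.0026 with TMM, was 0.0093 with RLE factors, 0.0083 with no filter and 0.0100 in DESeq2, and FAPI against sham was 0.0010 with no filter. With libraries left out, 5 differences, none of them called, changed sign: Agtrap ran from -0.13 to 0.021 for MI against sham, -0.077 to 0.076 for FAPI against MI and -0.0019 to 0.11 for FapKO against sham, Lnpep from -0.042 to 0.081 for FapKO against FAPI, and Agt from -0.18 to 0.0092 for FapKO against sham.

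Same-numbered libraries had correlations of their deviations of -0.349 to 0.417 in hearts and -0.184 to 0.068 in cultures. Those of different-numbered libraries were -0.46 to 0.49 and -0.13 to 0.19. No pairing by number was evident, though this check cannot exclude one. With the replicate block, Enpep for FapKO against MI was -0.39 (adjusted p = 0.0519) and lost its call; the block changed no other call of a member. FapKO against FAPI called 2035 genes with the block and 2247 without. Depth limits Agtr2 everywhere, and Enpep and Lnpep in the cultures.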
